A study of Caenorhabditis elegans with 7 samples.

Results

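Linker and variant histone genes of Caenorhabditis elegans were described through the small RNAs that cross their splice junctions. The members are every line of the deposited junction table whose gene is hil-3, hil-4, hil-8, his-35, his-37 or htz-1. They make up 6 of the 3717 genes, 16 of the 14533 lines and 8 of the 7678 introns in that table. Small RNA cut from a gel was sequenced from embryos that bleach had freed from adult worms, all in the N2 strain background. The 5 mutant libraries were rnp-2(mg582) 1 and 2, rnp-2(tm4058), rnp-3(ok1424) and mog-2(ok1221), and the 2 wildtype libraries were wildtype 1 and 2. Titles number the experiments: experiment 1 held rnp-2(mg582) 1, mog-2(ok1221), rnp-3(ok1424) and wildtype 1, and experiment 2 held rnp-2(mg582) 2, rnp-2(tm4058) and wildtype 2. Strains were kept at 20 degrees unless otherwise stated by the submitters, and the labels name no other allele, agent or age. Separate cultures are not mentioned, so the p-values speak of the spread among these 7 libraries alone, and that spread may be technical.

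As background, a linker histone binds the DNA that enters and leaves a nucleosome, while variant histones take the place of the usual core histones inside it. Most core histone genes of animals have no intron, so a table of splice junctions can show only those that do. In the worm, RNA-dependent RNA polymerases copy messenger RNA into small RNAs, and a small RNA that crosses an exon-exon junction reports a spliced template, while one that crosses an intron-exon boundary reports an unspliced one. The product of rnp-2 resembles the A protein of the U1 snRNP, which recognises the donor (5′) splice site, while those of rnp-3 and mog-2 resemble B'' and A' of the U2 snRNP, which recognises the branch site near the acceptor (3′) end.

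Because the mutated proteins belong to the particles that read the ends of introns, the ends of the introns of 5 members are shown here; those of hil-8 are not printed. Each donor run holds the last 5 bases of the exon and the first bases of the intron, with the first 6 intron bases in capitals. Each acceptor run holds the last bases of the intron and the first 5 of the next exon, with the last 6 intron bases in capitals. All were copied from the deposited table in the direction of transcription, 5′ to 3′, with positions as in the table (1-based, taken as WBcel235).
hil-3 donor, intron X:8159433-8159487, + strand: tcaagGTATGTttca
hil-3 acceptor: ctaaTTTCAGattaa
hil-4 donor, intron V:4754632-4754817, + strand: acaagGTATGTgttt
hil-4 acceptor: tttcTTTCAGatcaa
htz-1 donor, intron IV:4446406-4446455, + strand: tacagGTACTGattc
htz-1 acceptor: gtttTTTCAGcgctg
his-35 donor, intron V:9545002-9545133, - strand: caccgGTATGTagaa
his-35 acceptor: aatgTTCCAGgtgta
his-37 donor, intron V:9547230-9547303, + strand: caaagGTTAGTtttt
his-37 acceptor: tactTTCCAGccagc

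The linker histone genes hil-3 and hil-4 and the H2A gene his-35 share the donor hexamer GTATGT, which 3.39% of 6806 introns with both runs in the table have. The H4 gene his-37 has GTTAGT (4.78% of introns). The H2A.Z gene htz-1 has GTACTG, found at 0.206% of introns. The hexamer GTAAGT, found at 15.6% of introns, is at none of these 5 donors. The acceptor hexamer is TTTCAG in hil-3, hil-4 and htz-1 (51.1% of introns) and TTCCAG in his-35 and his-37 (14.1%). Against the site that pairs fully with U1 snRNA, CAGGTAAGT, read on the transcribed strand only across the last 3 exon bases and the first 6 intron bases, hil-3, hil-4, his-35 and his-37 match at 7 of 9 positions and htz-1 at 6. The table's median is 6. The 3 listed introns of the linker histone gene hil-8 match at 7, 5 and 6 positions in their order along the gene, and 5.48% of introns match at fewer than 5. These matches are descriptions of the letters in the window.

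The members differ widely in how much small RNA they have. The linker histone gene hil-8 (T05E8.2, I:5463117-5469639, - strand) had 84.5% of the members' 3254 spliced reads. Its wildtype level per junction, in scaled CPM (counts per library total, with that total scaled by TMM to the bulk of spliced reads), was 3.62, above 97.3% of the 3717 genes, whose median was 0.225. The other linker histone genes, hil-3 (F22F1.1, X:8159169-8160084, + strand) and hil-4 (C18G1.5, V:4754313-4755453, + strand), had wildtype levels of 1.01 and 0.409 scaled CPM per junction. The H4 gene his-37 (C50F4.7, V:9547105-9547607, + strand) had 0.478 and the H2A gene his-35 (C50F4.13, V:9544659-9545288, - strand) had 0.419. The H2A.Z gene htz-1 (R08C7.3, IV:4446216-4446999, + strand) had 0.0395, above 7.13% of genes. In this order hil-8 and hil-3 lay above the rest and htz-1 below in both wildtype libraries. The wildtype libraries of hil-4, his-35 and his-37 lay between 0.245 and 0.593 scaled CPM, and those of his-35 spanned both other genes. Each of these 5 genes has 1 annotated intron, and it is listed, while 3 of the 6 annotated introns of hil-8 are.

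All 6 genes passed the filter on low counts, but htz-1 passed only through rnp-2(mg582) 1 and rnp-3(ok1424). Library totals ran from 9901228 to 142819946 reads, and reads at listed junctions were 0.0579% of rnp-2(tm4058) and 2.08% of rnp-3(ok1424), the extremes, and rnp-2(tm4058) had the least precise values. Of the marker genes looked up to check the embryo label, 9 of 11 germline and maternal genes, 2 of 6 zygotic, 2 of 4 muscle, 4 of 4 neuron, 3 of 3 sperm and 0 of 4 intestine genes were listed. Their small RNAs do not measure the cells' own transcripts. In bulk embryos, fewer cells of a type and less RNA per cell cannot be told apart. Reads carry no molecular identifiers, so the intervals and floors below cover counting error only.

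**Figure D1:**
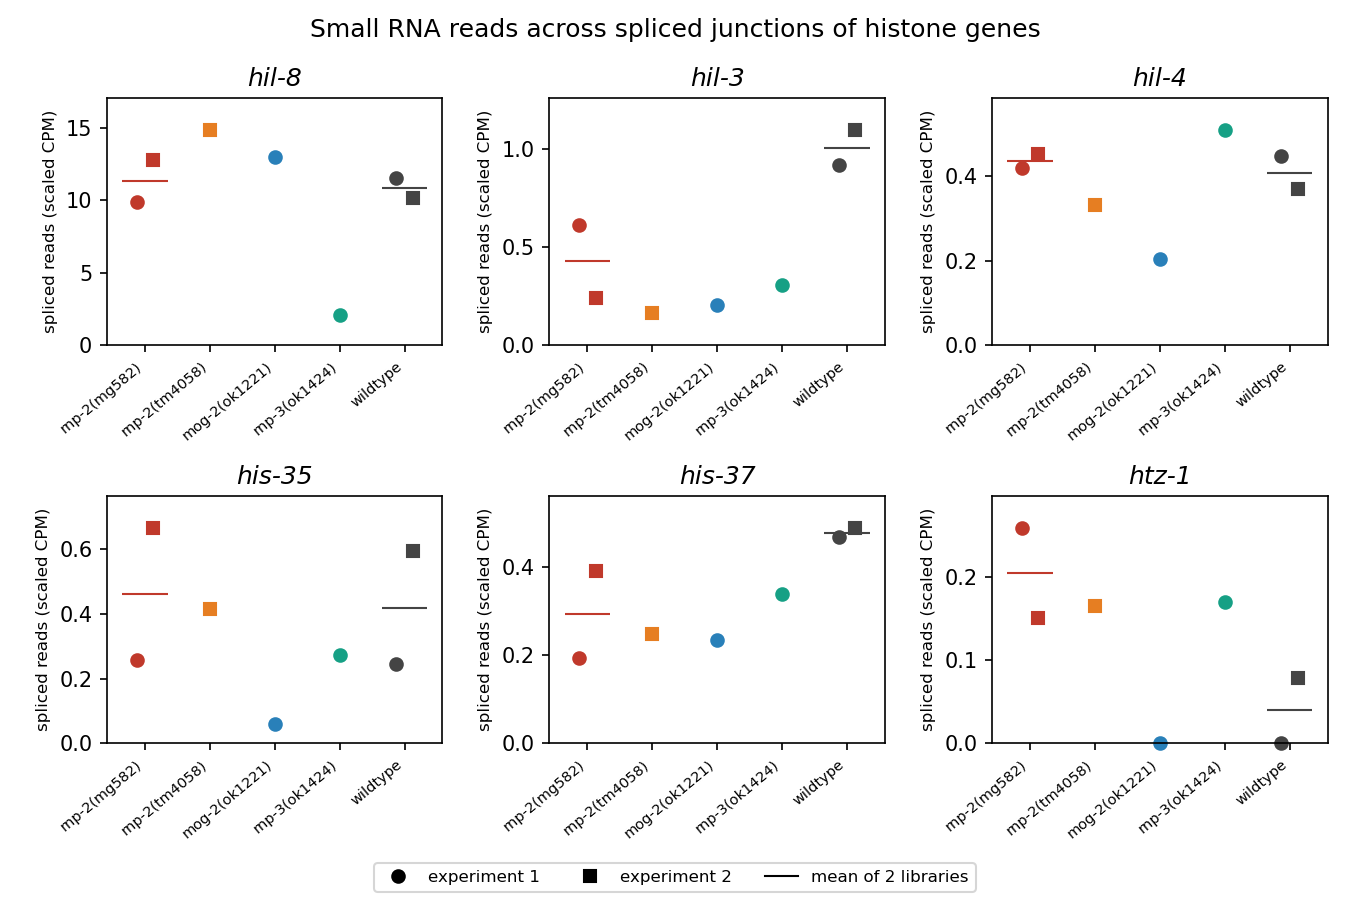
Spliced reads of the 6 genes in scaled CPM (vertical axes, each with its own scale from 0), 1 point per library, mutants left and wildtype right; circles are experiment 1, squares experiment 2, and lines are means of 2 libraries. The rnp-3(ok1424) library is lowest for hil-8 at 2.07, and all 5 mutant libraries lie below both wildtype libraries for hil-3 and his-37.

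In limma, 0 of the 6 genes passed an adjusted p of 0.05 in spliced reads in any genotype against wildtype. These comparisons share the wildtype libraries. Over all 3551 genes tested, 8.36% passed in rnp-2(mg582), 7.97% in rnp-2(tm4058), 2.17% in mog-2(ok1221) and 0.197% in rnp-3(ok1424), and 0% when the 5 mutant libraries were set against wildtype. At an unadjusted p under 0.05 the members numbered 2, 1, 1, 2 and 1 in these comparisons, hil-3 in each, with htz-1 in rnp-2(mg582) and hil-8 in rnp-3(ok1424). Of all 3551 genes, 775, 947, 709, 434 and 328 were under it in the same order. Nothing is read from the count for htz-1, since the filter took that gene in through a high rnp-2(mg582) library. On the recovered reads, edgeR and DESeq2 each called 1 member, hil-8 in rnp-3(ok1424), and 0 in the other 4 comparisons. The filter within DESeq2 left some members without an adjusted p, and those could not be called. It kept hil-8 alone in mog-2(ok1221) and rnp-3(ok1424), hil-3 and hil-8 in rnp-2(tm4058), and all but htz-1 in rnp-2(mg582). In the same order of comparisons, edgeR called 326, 138, 115, 5 and 0 of all 3551 genes and DESeq2 called 184, 115, 81, 20 and 56. With experiment as a block in limma, hil-3 passed in all 4 genotypes and hil-8 passed in rnp-3(ok1424), so the counts were 1, 1, 1 and 2, against 20.4%, 18.7%, 15.1% and 4.25% of all genes. For the mutants together the blocked count was 0 (0% of genes, 433 at unadjusted p under 0.05). In the blocked fits of single genotypes, little spread within a gene is left to measure. Their p-values therefore rest mostly on the spread shared over genes. Without the block, only rnp-2(mg582) and wildtype have 2 libraries to measure spread within a gene. The p-values of single genotypes there also lean on the shared spread.

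The median log2 change of the members was 0.04 in rnp-2(mg582), -0.05 in rnp-2(tm4058), -0.39 in mog-2(ok1221) and -0.22 in rnp-3(ok1424). Over all genes the medians were -0.02, -0.08, -0.01 and -0.03. Where libraries were scaled by their totals alone, the medians of all genes became -0.24, -0.96, 0.44 and 0.54, so that directions below are relative to the bulk of spliced reads, and 0 members passed in any of these comparisons on that scale. Of all 3551 genes 0, 0, 2 and 2 passed there, so nothing about the members is read from that 0.

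**Figure D2:**
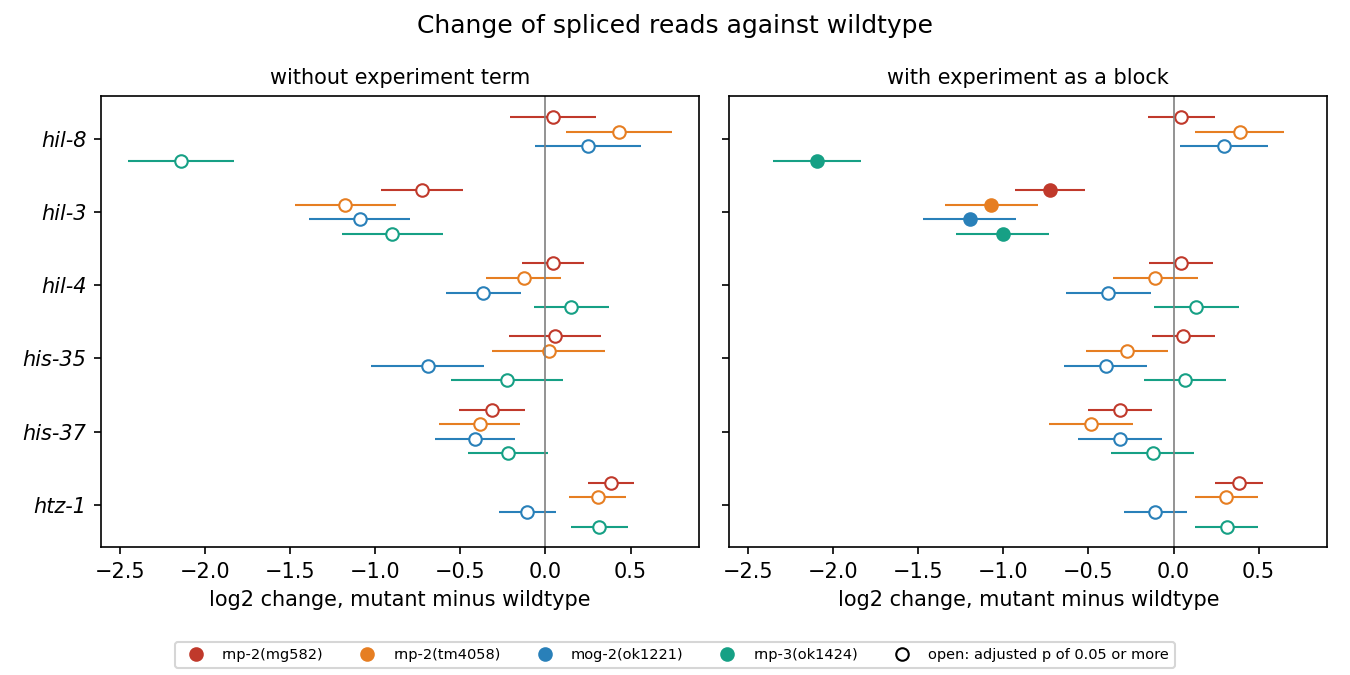
Log2 change of spliced reads on the log2(scaled CPM + 0.5) scale (horizontal axis, mutant minus wildtype, bars are 1 SE) for the 6 genes in 4 genotypes, without (left) and with (right) experiment as a block; filled points have an adjusted p under 0.05. On the right the filled points are hil-3 in all 4 genotypes and hil-8 in rnp-3(ok1424) at -2.095; the points of htz-1 are descriptions only.

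Spliced small RNAs of hil-8 were lower in the rnp-3(ok1424) library than in every other library. They stood at 2.07 scaled CPM in rnp-3(ok1424), at 9.85 and 12.7 in rnp-2(mg582), 14.8 in rnp-2(tm4058) and 13.0 in mog-2(ok1221), and at 11.5 and 10.2 in wildtype. The reads behind these values were 61 in rnp-3(ok1424), 305 and 423 in rnp-2(mg582), 179 in rnp-2(tm4058) and 443 in mog-2(ok1221), against 566 and 772 in wildtype. The other 4 mutant libraries lay on both sides of the wildtype values. The change in rnp-3(ok1424) against wildtype was -2.14 ± 0.31 (log2, SE), 4.41-fold lower, and missed the threshold (adjusted p = 0.0567 in limma), the 8th smallest p of 3551 genes. It passed with experiment as a block (log2 -2.095), where the p-value rests mostly on the spread shared over genes. The genotype rnp-3(ok1424) has 1 library, so the change has no replicate check of its own.

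Set against the other mutants, the same library was again low. These comparisons were added after the values were seen. Against rnp-2(mg582) the log2 change in rnp-3(ok1424) was -2.19 ± 0.31 (adjusted p = 0.00764 in limma, where 7.41% of genes passed, or 16.8% with the block). Against rnp-2(tm4058) it was -2.57 ± 0.36 (adjusted p = 0.0141, 5.91% of genes, or 12.2% with the block). Against mog-2(ok1221), a component of the same U2 particle and from the same experiment, it was -2.39 ± 0.36 (adjusted p = 0.0550, 0.253% of genes), and it passed with the block (adjusted p = 4.39e-06, 11.2% of genes). On the log2 scale with 0.5 added, hil-8 in rnp-3(ok1424) lay 4.02-fold below the next lowest library, and of the 3551 genes 1, hil-8 itself, had a drop of at least that size in this library. With library size alone hil-8 passed in none of these comparisons, and against rnp-2(tm4058) the log2 change was 1.93 ± 2.65. The median of all genes was 1.46 there. How many of all genes passed on that scale is not given here, so nothing particular to hil-8 is read from its not passing.

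As a share of all library reads the order differs. The deposited CPM of hil-8 were 6.16 in rnp-3(ok1424), 20.9 in rnp-2(mg582) 1, 33.9 in mog-2(ok1221) and 27.2 in wildtype 1, all of experiment 1. In experiment 2 they were 4.52 in rnp-2(mg582) 2, 1.25 in rnp-2(tm4058) and 8.74 in wildtype 2. Within experiment 1 rnp-3(ok1424) was thus lowest on both scales, but across experiments rnp-2(tm4058) was below it in CPM. With library size alone the change against wildtype was -1.26 (adjusted p = 0.995). Summed levels of the germline and maternal markers were 11.8 scaled CPM in rnp-3(ok1424) and 11.8 and 13.4 in wildtype, and those of the neuron markers were 36.8 in rnp-3(ok1424) and 36.5 and 28.2 in wildtype. Those of the sperm markers were 1.97 in rnp-3(ok1424) and 3.57 and 2.91 in wildtype, those of the muscle markers 1.73 in rnp-3(ok1424) and 2.65 and 1.27 in wildtype, and those of the zygotic markers 0.408 in rnp-3(ok1424) and 0.306 and 0.158 in wildtype. The sperm sum was thus below both wildtype libraries, and the part of any of these sums in the result was not tested.

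The 3 listed introns of hil-8 are long for this table. Intron 1 has 907 bases (I:5468644-5469550), intron 2 has 1739 (I:5466640-5468378) and intron 3 has 576 (I:5466006-5466581), longer than 92.5%, 97.6% and 85.8% of 6855 introns with both ends listed, whose median length is 58. The junction of intron 2 held most of the spliced reads in every library: 50.8% in rnp-3(ok1424), 59.3% and 72.3% in rnp-2(mg582), 65.9% in rnp-2(tm4058) and 63.4% in mog-2(ok1221), against 56.4% and 56.1% in wildtype. At this junction rnp-3(ok1424) had 1.05 scaled CPM, against 6.51 and 5.71 in wildtype. At intron 1 it had 0.679, against 4.16 and 4.22 in wildtype. At both junctions rnp-3(ok1424) was thus the lowest of the 7 libraries. At intron 3 the levels were 0.340 in rnp-3(ok1424), 0.807 and 0.211 in rnp-2(mg582), 0.414 in rnp-2(tm4058) and 0.938 in mog-2(ok1221), against 0.877 and 0.250 in wildtype. There rnp-3(ok1424) was not the lowest of the 7 libraries, but it was the lowest within experiment 1. Those below it, rnp-2(mg582) 2 and wildtype 2, were of experiment 2.

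Intron 3 of hil-8 split the libraries by experiment. Its share of the gene's spliced reads was 8.20% in rnp-2(mg582) 1, 7.22% in mog-2(ok1221), 16.4% in rnp-3(ok1424) and 7.60% in wildtype 1. In experiment 2 it was 1.65% in rnp-2(mg582) 2, 2.79% in rnp-2(tm4058) and 2.46% in wildtype 2. All 4 libraries of experiment 1 lay above all 3 of experiment 2, and how many other introns split this way was not counted. The share in rnp-3(ok1424) rests on 10 reads, with an exact 95% binomial interval of 8.15% to 28.1%.

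**Figure D3:**
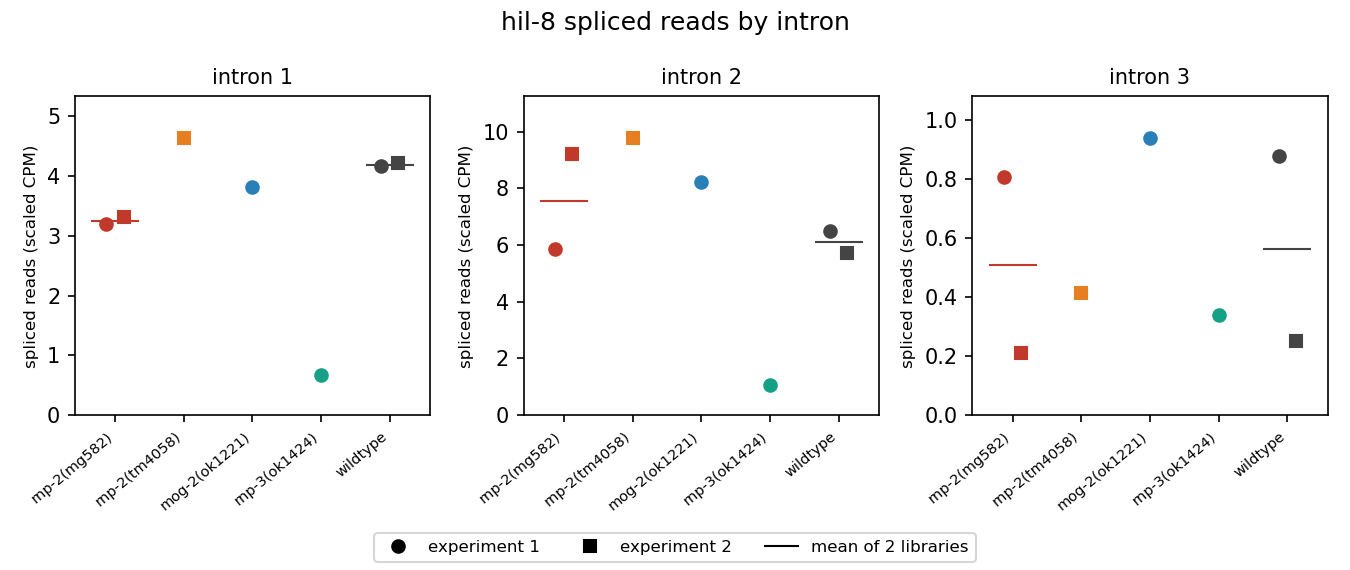
Spliced reads of hil-8 in scaled CPM (vertical axes from 0, each with its own scale) at each of its 3 listed introns, 1 point per library, mutants left and wildtype right; circles are experiment 1, squares experiment 2, and lines are means of 2 libraries. The rnp-3(ok1424) library is lowest at introns 1 and 2, at 0.679 and 1.05.

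Unspliced reads of hil-8 were higher in all 3 rnp-2 libraries than in the other 4. How many other genes show this split was not counted, so it is a description only. They stood at 0.904 and 0.874 scaled CPM in rnp-2(mg582) and 0.911 in rnp-2(tm4058), against 0.428 and 0.303 in wildtype, and mog-2(ok1221) had 0.381. The rnp-3(ok1424) library had 0 reads, where a floor of 3 reads in the library is 0.102 scaled CPM, at least 3.59-fold lower than the wildtype mean. The reads were 28 and 29 in rnp-2(mg582), 11 in rnp-2(tm4058), 13 in mog-2(ok1221) and 0 in rnp-3(ok1424), against 21 and 23 in wildtype. Of these 125 reads, 100 (80%) lay at the donor end of intron 2 and 4 at its acceptor end. The donor of intron 2 has the fewest matches to the U1 site among the 3, and a link between the matches and the reads was not tested.

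The gene hil-8 was the 1 member among the 489 genes with enough unspliced reads to test. In rnp-2(mg582) its unspliced reads averaged 0.889 ± 0.0214 scaled CPM, against 0.366 ± 0.0886 in wildtype (SD, n = 2 each). They rose by a log2 change of 0.69 ± 0.20, or 1.61-fold on the scale with 0.5 added (adjusted p = 0.0429 in limma, where 22.5% of the 489 genes passed; 0.00263 with experiment as a block, where 42.1% passed). The log2 change was 0.60 within experiment 1 and 0.77 within experiment 2. The call ended in edgeR (adjusted p = 0.0677) and DESeq2 (0.489), and in limma with library size alone (0.965). It also ended without any 1 of the 4 libraries, where 1 group keeps 1 library. The log2 change was 0.60 to 0.77 with a library left out, 1.29 in edgeR and in DESeq2, and 0.39 with library size alone. In rnp-2(tm4058), added after the values were seen, the log2 change was 0.71 ± 0.24 (adjusted p = 0.0849, 15.3% of genes passed; 0.0154 with the block, 34.4% passed), and with library size alone it was -0.89.

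In the other genotypes, also added after the values were seen, hil-8 did not pass without the block. The log2 change of unspliced reads was 0.03 ± 0.24 in mog-2(ok1221) (adjusted p = 0.941 in limma, where 9% of the 489 genes passed, or 33.3% with the block). In rnp-3(ok1424) it was -0.79 ± 0.24 (adjusted p = 0.386, where 0% passed in limma and 0 genes in edgeR and DESeq2, with 59 at unadjusted p under 0.05 in limma). With the block the value in rnp-3(ok1424) was -0.85 (adjusted p = 0.0374, 4.7% of genes). Spliced and unspliced reads of hil-8 were thus both lowest in that library.

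Relative to its spliced reads, unspliced hil-8 made up 8.41% and 6.42% of junction reads in rnp-2(mg582), 5.79% in rnp-2(tm4058), 2.85% in mog-2(ok1221) and 0% in rnp-3(ok1424), against 3.58% and 2.89% in wildtype. The exact 95% upper limit in rnp-3(ok1424), which had 61 junction reads, was 5.87%, so a share like that of wildtype could not be told from 0 at this depth. At the donor end of intron 2 the unspliced share was 11.3% (interval 7.28% to 16.4%) and 7.27% (4.72% to 10.6%) in rnp-2(mg582) and 7.09% (3.29% to 13.0%) in rnp-2(tm4058). It was 4.78% (2.75% to 7.64%) and 4.20% (2.55% to 6.49%) in wildtype. All 3 rnp-2 shares at this donor end lay above both wildtype shares. Their intervals overlapped those of wildtype, apart from rnp-2(mg582) 1 against wildtype 2. Over all listed junctions the unspliced share was also higher in rnp-2(mg582) (7.80% and 8.34%) and rnp-2(tm4058) (8.05%) than in wildtype (7.10% and 7.02%). There mog-2(ok1221) had 7.82% and rnp-3(ok1424) 7.22%. How many other intron ends have this order was not counted. The acceptor end of intron 2 had far smaller shares, at 0.549% and 0.649% in rnp-2(mg582), 0.840% in rnp-2(tm4058) and 0% in both wildtype libraries.

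The test of the ratio of unspliced to spliced reads in rnp-2(mg582) called 0 of the 6 genes in limma (0.0563% of 3551 genes passed), with 0 members at unadjusted p under 0.05 and 0 in edgeR. With experiment as a block 9.94% of genes passed, and again 0 members. Since hil-4, his-37 and htz-1 had no unspliced read, their ratio reflects spliced reads alone, and nothing about unspliced reads is read from it. The log2 change for hil-8 was 1.01 ± 1.24 (adjusted p = 1), on CPM as deposited, where the median of all genes was 0.23. At the donor end of intron 2 alone, a fit added after the values were seen gave 0.39 ± 0.33 (adjusted p = 0.572).

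**Figure D4:**
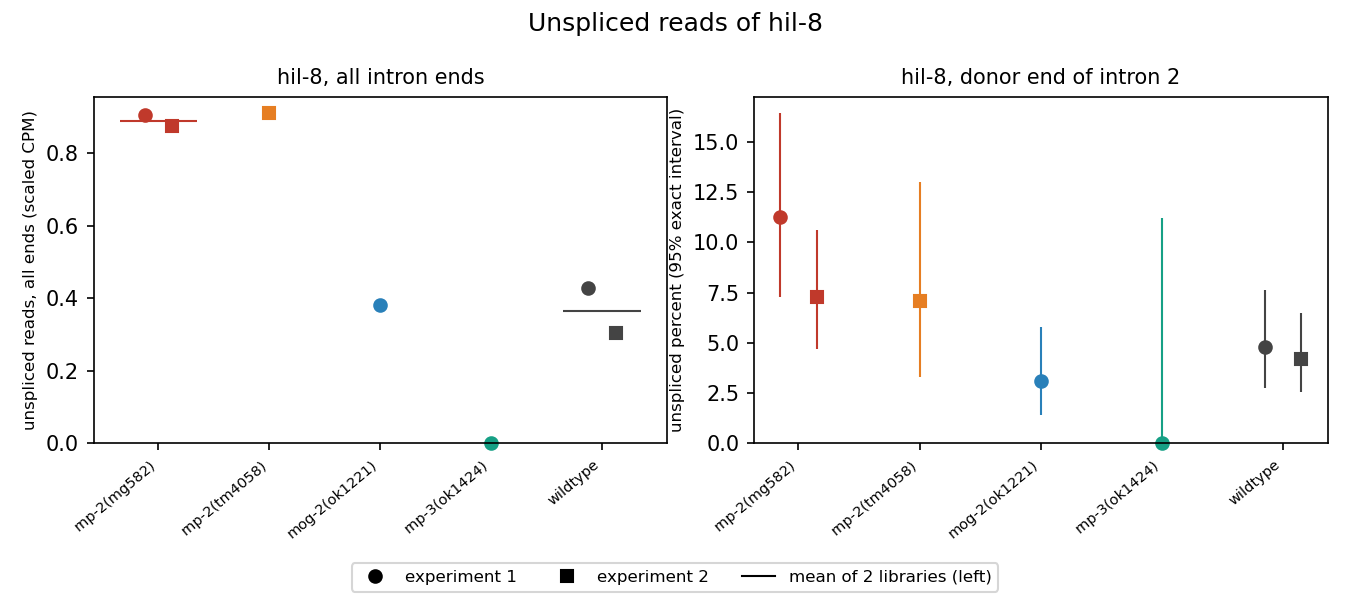
Unspliced reads of hil-8 per library, mutants left and wildtype right, circles for experiment 1 and squares for experiment 2. Left, scaled CPM over all listed intron ends, with means of 2 libraries as lines, where the 3 rnp-2 libraries lie between 0.874 and 0.911 and wildtype at 0.428 and 0.303; right, the unspliced percent at the donor end of intron 2 with exact 95% binomial intervals.

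By the fixed rule for likeness, the gene whose spliced pattern was most like that of hil-8 was cls-2, which encodes a CLASP microtubule-binding protein (Pearson r = 0.864 over the 7 libraries, among 485 genes with at least 20 reads in each). This is a description across libraries that share depth and batch. The levels of cls-2 were 4.88 and 5.33 scaled CPM in rnp-2(mg582), 6.71 in rnp-2(tm4058), 5.48 in mog-2(ok1221) and 2.89 in rnp-3(ok1424), against 4.06 and 4.20 in wildtype. It too was lowest in rnp-3(ok1424) and highest in rnp-2(tm4058). No other member had enough reads for the rule.

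Spliced small RNAs of hil-3, a linker histone gene with a single intron of 55 bases, were lower in every mutant library than in both wildtype libraries. They stood at 0.614 and 0.241 scaled CPM in rnp-2(mg582), 0.166 in rnp-2(tm4058), 0.205 in mog-2(ok1221) and 0.306 in rnp-3(ok1424), against 0.918 and 1.09 in wildtype. The reads were 19, 8, 2, 7 and 9 in these mutant libraries, against 45 and 83 in wildtype. The mutants averaged 0.306 ± 0.179 (SD, n = 5) and wildtype 1.01 ± 0.124 (SD, n = 2). The groups did not overlap, as was the case with lower mutants for 2 of the 6 members (hil-3 and his-37) and for 8.19% of the 3551 genes. No member had all 5 mutants above wildtype, against 5.35% of genes. On deposited CPM the groups did overlap for hil-3, since rnp-2(mg582) 1 had 1.30 and wildtype 2 had 0.939.

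The tests of hil-3 depended on whether experiment was in the model, and the blocked p-values of single genotypes rest mostly on the spread shared over genes. Without it, the log2 changes were -0.73 ± 0.24 in rnp-2(mg582) (adjusted p = 0.120), -1.18 ± 0.30 in rnp-2(tm4058) (0.0516), -1.09 ± 0.30 in mog-2(ok1221) (0.1003) and -0.90 ± 0.30 in rnp-3(ok1424) (0.314), all in limma. With experiment as a block the adjusted p were 0.0132, 0.00712, 0.00386 and 0.0359 in the same order, with log2 changes of -0.73, -1.07, -1.20 and -1.005. For the 5 mutants together the log2 change was -0.92 ± 0.23 (adjusted p = 0.196, and 0.156 with the block), the 39th smallest p of 3551 genes. The log2 change in rnp-2(mg582) was -0.35 within experiment 1 and -1.105 within experiment 2. Between 0 and 5 unspliced reads per library crossed the ends of the hil-3 intron, 19 in all, of which 15 were at the acceptor end.

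The spliced reads of hil-4, a linker histone gene with the same donor hexamer as hil-3, did not follow those of hil-3. They stood at 0.420 and 0.452 scaled CPM in rnp-2(mg582), 0.331 in rnp-2(tm4058), 0.205 in mog-2(ok1221) and 0.509 in rnp-3(ok1424), against 0.449 and 0.369 in wildtype. Mutant libraries lay on both sides of wildtype. The largest log2 change in size was -0.36 ± 0.22, in mog-2(ok1221) (adjusted p = 0.417 in limma). No unspliced read of hil-4 was counted in any of the 7 libraries.

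The H2A.Z gene htz-1, whose product replaces H2A at promoters and elsewhere, had 26 spliced reads in all and no unspliced ones. Its libraries had 8 and 5 reads in rnp-2(mg582), 2 in rnp-2(tm4058), 0 in mog-2(ok1221) and 5 in rnp-3(ok1424), against 0 and 6 in wildtype. In scaled CPM these are 0.258, 0.151, 0.166, 0 and 0.170 in the mutants, against 0 and 0.0791 in wildtype, where the floors of 3 reads for the libraries at 0 are 0.0879 in mog-2(ok1221) and 0.0612 in wildtype 1. Both rnp-2(mg582) libraries lay above both wildtype libraries, as did 1 of the 6 members and 23.7% of genes. Since the filter on low counts took htz-1 in through such a library, this is a description and no test is given.

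The genes his-35 and his-37 lie 1816 bases apart on chromosome V, on opposite strands, with C50F4.6 and his-41 between them, and neither of those is in the table. Spliced reads of his-35 were 0.258 and 0.663 scaled CPM in rnp-2(mg582), 0.414 in rnp-2(tm4058), 0.0586 in mog-2(ok1221) and 0.272 in rnp-3(ok1424), against 0.245 and 0.593 in wildtype. All 3 libraries of experiment 2 lay above all 4 of experiment 1, and how many other genes split this way was not counted. Its log2 changes ran from -0.69 ± 0.33 in mog-2(ok1221) (adjusted p = 0.300) to 0.06 ± 0.27 in rnp-2(mg582) (0.928), in limma. It had 4 unspliced reads in all.

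Spliced reads of his-37 were 0.194 and 0.392 scaled CPM in rnp-2(mg582), 0.248 in rnp-2(tm4058), 0.235 in mog-2(ok1221) and 0.340 in rnp-3(ok1424), against 0.469 and 0.488 in wildtype. Every mutant library was below both wildtype libraries. In rnp-2(mg582) alone this held for hil-3 and his-37, 2 of the 6 members, and for 27.4% of genes. The his-37 reads were 6 and 13 in rnp-2(mg582), 3 in rnp-2(tm4058), 8 in mog-2(ok1221) and 10 in rnp-3(ok1424), against 23 and 37 in wildtype. On deposited CPM the groups overlapped for his-37, since mog-2(ok1221) had 0.612 and rnp-3(ok1424) 1.01, against 0.419 in wildtype 2. The mutants averaged 0.282 ± 0.0815 (SD, n = 5) and wildtype 0.478 ± 0.0130 (SD, n = 2), a log2 change of -0.33 ± 0.18 (adjusted p = 0.619 in limma, 0.511 with the block). The gene overlaps nstp-10 on the other strand by 6 bases. Whether counting used strand is not given in the sources used here. The counted junction, V:9547230-9547303, lies inside the gene, and an overlap of 6 bases at a gene edge does not reach it.

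Other chromatin genes were mostly outside the table or did not pass. Of 6 other linker histone genes none is listed, and of 71 other core and variant histone genes 1 is, hcp-3, which encodes the centromeric H3 variant. Of 12 genes for H2A.Z deposition and related complexes 7 are listed, of 20 histone chaperones and remodelers 11, and of 31 histone modifiers and readers 14. Of these 33 tested genes, 0 passed in rnp-2(mg582), mog-2(ok1221), rnp-3(ok1424) or the mutants together in limma, and 1 fell in rnp-2(tm4058). Over all genes 8.36%, 2.17%, 0.197% and 0% passed in the comparisons with none, and 7.97% in rnp-2(tm4058). At unadjusted p under 0.05 in limma there were 3, 5, 3 and 2 of the 33 in the comparisons with none, and 7 in rnp-2(tm4058). Over all 3551 genes there were 775, 709, 434 and 328, and 947 in rnp-2(tm4058). On recovered reads edgeR and DESeq2 called 0 of the 33 in all 5 comparisons. Their counts over all genes are those given above for the 6 members. How many of the 33 had an adjusted p in DESeq2 was not counted. The gene that fell was cdl-1, which encodes the stem-loop binding protein that histone messenger RNAs need. Its level was 0.0828 scaled CPM in rnp-2(tm4058), from 1 read, against 0.592 and 0.514 in wildtype (log2 -0.85 ± 0.21, adjusted p = 0.0464, and 0.0149 with the block). The call ended without wildtype 1 or wildtype 2. Each of those fits keeps 1 wildtype library, and calls over all genes fell in them too, so the loss is not particular to cdl-1. In rnp-2(mg582) it had 0.194 and 0.211 scaled CPM and a log2 change of -0.58 ± 0.17 (adjusted p = 0.0763, and 0.0220 with the block).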

How the data were processed

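The deposited table gives CPM, which the authors scaled to library totals, at intron-exon and exon-exon junctions, 2 columns for each of the 7 libraries. The submitters' processing notes name STAR and SAMtools without versions, and the genome build is not given in the sources used here. Of the lines, 98.1% lie on an intron boundary of WBcel235. Every CPM value was a whole multiple of 1 step per library (100% within 1e-06 reads), which gave whole reads and library totals. The table lists no line below 0.505 CPM in every library. Introns of 1 gene with spliced reads within 5% were counted once, and reads were summed per gene. limma 3.58.1 (R 4.3.3, trended) was fitted across 3551 genes kept by filterByExpr of edgeR 4.0.16 (minimum count 10, total 15) on log2(TMM-scaled CPM + 0.5), which understates low genes, with Benjamini-Hochberg adjustment over all genes. Unspliced reads used the same factors. A genotype with 1 library is assumed to vary like those with 2. DESeq2 1.42.0 and edgeR on recovered reads, other scalings, pseudocounts and filters were alternatives. The script was tested on simulated data. Experiment numbers in the titles pair libraries: the differences between experiments in rnp-2(mg582) and in wildtype correlated at 0.38 over genes. The members and lists were chosen with earlier results of these data known. Every member is named, and list genes only past the threshold.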

Additional observations from a re-analysis of the deposited data

Results flagged for a closer look

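Spliced reads of hil-8 differed between mutants: the log2 value of rnp-3(ok1424) minus rnp-2(mg582) was -2.19, and that of rnp-3(ok1424) minus rnp-2(tm4058) was -2.57. Both passed in limma with 1 rnp-3(ok1424) library, and with library size alone neither did. In rnp-2(mg582) the direction of 2 genes differed between experiments, and this difference was not tested. For hil-8 the log2 change was 0.31 in experiment 2 and -0.22 in experiment 1, a difference of 0.53. For hil-4 the change was 0.13 in experiment 2 and -0.04 in experiment 1, a difference of 0.18.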

How the results depend on the processing

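Depth limits all genes but hil-8: htz-1 rests on 26 spliced reads and hil-4, his-35 and his-37 on 100 to 104 each. The comparisons of mutants with each other, the unspliced reads of genotypes with 1 library, TMM in the ratio and the fit per intron end were chosen after seeing the data. With experiment as the replicate block, members called in spliced reads numbered 1 in rnp-2(mg582), 1 in rnp-2(tm4058), 1 in mog-2(ok1221) and 2 in rnp-3(ok1424). The block also gave 1 in unspliced reads of rnp-2(tm4058) and of rnp-3(ok1424), and 1 against mog-2(ok1221). It changed no other call of a member. In rnp-2(tm4058) 1 member (hil-3) passed with median-of-ratios factors (adjusted p = 0.0478; 305 of 3551 genes passed) or a pseudocount of 0.1 (0.0447; 396). In rnp-3(ok1424) 1 member (hil-8) passed with a pseudocount of 0.1 (0.0388), at a mean of at least 5 CPM (0.0177), in edgeR (0.0498) and in DESeq2 (9.84e-05), where 8 of 3551, 2 of 222, 5 and 20 genes passed. The log2 change of hil-8 there was -1.96 without wildtype 1 and -2.20 without wildtype 2, and it did not pass. These fits keep 1 wildtype library, and calls over all genes were lost in them too. Against mog-2(ok1221) hil-8 passed in edgeR (0.0499), DESeq2 (0.000154), with median-of-ratios factors (0.0468) and at a mean of at least 5 CPM (0.0128), where 7, 60 and 19 of 3551 and 25 of 222 genes passed. The unspliced call of hil-8 in rnp-2(mg582) fell to 0 with library size alone, a pseudocount of 0.1, no filter, edgeR, DESeq2 and each library left out. Against rnp-2(mg582) or rnp-2(tm4058) with library size alone, the medians of all genes were 0.79 and 1.46. The call of hil-8 in rnp-3(ok1424) was lost on that scale (0 members, log2 1.93 for rnp-2(tm4058)).

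Of the log2 changes of single genes under all alternatives, 457 kept direction and side of the threshold, 18 newly passed, 17 no longer passed, 4 moved by more than the replicate spread and 32 turned sign. Signs turned only where the gene had not passed, apart from that last value. With library size alone, log2 changes in rnp-2(mg582) were -0.23 (hil-4), -0.62 (hil-8) and -0.25 (his-35). In rnp-2(tm4058) they were -3.19 (hil-8), -0.96 (his-35), -0.052 (htz-1) and -0.89 (unspliced hil-8), and in rnp-3(ok1424) 0.33 (his-35) and 0.31 (his-37). The block gave -0.27 and 0.067 for his-35 in rnp-2(tm4058) and rnp-3(ok1424), and -0.031 for unspliced hil-8 in mog-2(ok1221). In edgeR his-35 had -0.061 in rnp-2(tm4058), and the ratio had -0.91 for hil-3 and -0.12 for hil-4, which TMM made -0.043. With no unspliced read, hil-4 has a ratio that reflects its spliced reads alone. Leaving out 1 library at a time changed the sign of some values. In rnp-2(mg582) they ran from -0.11 to 0.28 (hil-8), from -0.010 to 0.11 (hil-4) and from -0.27 to 0.37 (his-35), and in the ratio from -0.057 to 1.38 (hil-3) and from -0.30 to 0.77 (hil-4). For his-35 they ran from -0.24 to 0.31 in rnp-2(tm4058) and from -0.44 to 0.064 in rnp-3(ok1424). Unspliced hil-8 in mog-2(ok1221) ran from -0.070 to 0.12. For the mutants together the ranges were -0.10 to 0.038 (hil-4), -0.38 to 0.13 (his-35) and -0.45 to 0.20 (hil-8, the highest without rnp-3(ok1424)). The cause was not tested.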
